A study of Mus musculus with 24 samples.

Results

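A set of 10 genes that mark granule cells of the cerebellum (Neurod1, Zic1, Zic2, Etv1, Barhl1, Pax6, Cbln1, Cbln3, Fat2 and Reln) was followed through RNA-seq of mice without Thumpd1 (KO) and their wild-type (WT) controls. They were taken by gene symbol from a table of 55450 genes, and each symbol had 1 row. All 10 passed the filter on low counts in cerebellum, which asked for 1 CPM (counts scaled to a library total of 1000000) in at least 4 of 8 libraries. In KO cerebellum the transcription factor genes Zic1, Neurod1 and Etv1 were lower than in WT by 13.5%, 14.0% and 13.0%, where 2.51% of all genes tested were called lower. None of the 10 was called when neighbouring libraries were summed. The same held with the level of forebrain markers as a covariate, but that level did not overlap between genotypes and cannot be told apart from genotype. The Etv1 call was lost when any 1 of 6 of the 8 libraries was left out. The other 7 genes did not pass the test, and no gene of the 10 was called higher.

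Granule cells are the small excitatory neurons that fill the inner layer of the cerebellar cortex, and they are the most numerous neurons of the brain. They arise from dividing progenitors at the outer surface, migrate inward, and send parallel fibres to Purkinje cells. Zic, Barhl1, Pax6 and Neurod1 proteins are transcription factors of this lineage, cerebellins are secreted at parallel fibre synapses, and reelin is a secreted protein that guides the placement of Purkinje cells and is made by granule cells.

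The study asked how loss of Thumpd1, the adaptor that NAT10 needs to acetylate cytidine in serine and leucine tRNAs, changes RNA in cerebellum, liver and testes. The KO line was made in C57BL/6N fertilized eggs with Cas9 and guides cutting in exon 1 and exon 4, so the deletion was not restricted to 1 cell type. Mice were between 6 and 12 weeks old and of either sex, and no treatment was given. Per the study's methods, WT controls were age-matched littermates unless stated otherwise. There were 4 libraries per genotype and tissue (replicates 1 to 4 WT, replicates 5 to 8 KO), 24 in all. The study describes its cerebellum values as averages of 4 biological replicates, but the labels did not tie a replicate number to an animal. The p-values therefore measure the spread between these libraries, which may in part be technical.

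Cerebellum libraries held 18365028 to 24728845 counts in WT and 16353797 to 19572030 in KO, and liver and testes libraries 18145725 to 37889615. Thumpd1 lay between 21.8 and 24.02 CPM in WT cerebellum and between 0 and 0.113 CPM in KO cerebellum, so no cerebellum library went against its label. Mature granule cell markers were abundant in all 8 libraries, for example Gabra6, a GABA-A receptor subunit, at 354 to 466 CPM. Atoh1, the gene that defines dividing progenitors, had at most 2 counts in any KO library and 0 in all WT libraries. Neighbouring cerebellum libraries (1 and 2, 3 and 4, 5 and 6, 7 and 8) had a smaller mean chi-square statistic per gene, 3.20 to 5.47, than other libraries of the same genotype, 5.58 to 12.3. By the median over genes this did not hold in KO, where replicates 5 and 6 came to 1.07, replicates 5 and 7 to 1.02 and replicates 5 and 8 to 0.990. Neighbours thus differed beyond sampling noise. Repeat preparations of the same tissue could do so too, so this cannot tell whether neighbours came from different animals. Neighbours were kept as separate libraries, and values with neighbours summed are given beside the calls of the 10 genes.

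The stretches upstream of Neurod1, Zic1 and Etv1 are shown because these were the 3 genes that fell. They are the parts of RefSeq promoter windows (250 bases before a start, GRCm38.p6) that lie outside every GENCODE exon, written 5′ to 3′ on the strand of the gene. Capitals mark the E-box letters CANNTG, the core that Neurod1 and other basic helix-loop-helix proteins recognise, which read the same on both strands. Neurod1 is chr2:79456786-79456886 on the minus strand, Zic1 is chr9:91365811-91366018 on the minus strand, and Etv1 is chr12:38779832-38780081 on the plus strand. The Zic1 stretch lies within the span of Zic4 on the other strand, and the Etv1 stretch lies within the span of the Etv1 gene, before a later start.
Neurod1: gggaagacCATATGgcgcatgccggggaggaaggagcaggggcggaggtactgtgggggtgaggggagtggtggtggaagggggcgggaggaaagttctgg
Zic1: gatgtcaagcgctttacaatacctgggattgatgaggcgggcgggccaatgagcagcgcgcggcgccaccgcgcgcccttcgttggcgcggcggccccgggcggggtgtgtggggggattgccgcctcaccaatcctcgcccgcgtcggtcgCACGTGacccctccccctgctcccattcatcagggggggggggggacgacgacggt
Etv1: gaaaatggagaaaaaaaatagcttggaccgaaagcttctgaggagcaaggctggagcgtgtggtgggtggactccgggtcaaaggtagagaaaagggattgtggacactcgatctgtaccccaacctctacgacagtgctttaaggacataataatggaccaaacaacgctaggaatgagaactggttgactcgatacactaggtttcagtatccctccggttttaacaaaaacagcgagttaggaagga
The Neurod1 and Zic1 stretches each held 1 such match, with the letters CATATG and CACGTG, and the Etv1 stretch held none. A start further downstream in Etv1 has a second RefSeq window, nearly all of it exonic and not shown, which held 3 matches to CANNTG. RefSeq windows were matched for 8 of the 10 genes, 11 windows in all. Of these, 9 held CANNTG, against 66.2% of all 32851 windows of the same length. CAGATG stood in 1 of the 11, that second Etv1 window, and in 14.4% of all windows, and CAGCTG stood in 2 of the 11 and in 13% of all windows. These matches describe the letters of the windows and were not tested as binding sites.

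In WT cerebellum the 10 genes together made up 6761 to 7046 CPM. Compared per kilobase of exon (the union of GENCODE exons), their levels spanned a wide range, with the cerebellins at the top. Cbln3, a cerebellin made almost only by granule cells, stood at 247 CPM per kb ± 2.85 (SD, n = 4). Cbln1, whose protein bridges presynaptic neurexins and the GluD2 receptor of Purkinje cells, stood at 198 CPM per kb ± 4.48. Zic1, a zinc finger transcription factor, was the highest of the transcription factors with 170 CPM per kb ± 3.51.

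Below them came Fat2, an atypical cadherin, at 137 CPM per kb ± 7.90 and Neurod1, a basic helix-loop-helix factor of maturing granule cells, at 115 CPM per kb ± 5.08. Zic2 followed at 81.5 CPM per kb ± 3.84, and Etv1, an ETS factor linked to granule cell maturation, at 45.3 CPM per kb ± 1.79. Reln stood at 34.1 CPM per kb ± 0.688, Pax6, a paired-box factor, at 11.4 CPM per kb ± 0.269, and Barhl1, a homeobox factor, was lowest at 3.85 CPM per kb ± 0.327. The ranges of the 4 WT libraries did not overlap for any neighbouring genes in this order. The order was the same in KO, and the same with the length of the longest coding transcript in place of the exon union, although Etv1 then came to 91.6 and Pax6 to 30.1 CPM per kb.

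The granule cell genes were far higher in WT cerebellum than in WT liver and testes, which served as background tissues. Reln alone reached 1 CPM in all 4 WT liver libraries, and Reln, Etv1, Cbln1 and Cbln3 did so in all 4 WT testes libraries. These were called higher in cerebellum (limma on TMM-scaled counts, Benjamini-Hochberg adjusted p under 0.05), where 50.3% of 16802 genes tested against liver and 41.4% of 20877 tested against testes were called higher. The remaining members passed the filter through their cerebellum libraries, so their calls are not read as results and their levels are given as a description. Neurod1, Cbln1, Zic2, Fat2 and Pax6 had 0 counts in all 4 WT liver libraries. Against a floor of 3 counts over the WT liver group, they were in CPM at least 12739-fold (Neurod1), 24536-fold (Cbln1), 9598-fold (Zic2), 80415-fold (Fat2) and 5424-fold (Pax6) higher in cerebellum. With the library sizes scaled by TMM, as in the test, these bounds were 5430-fold, 10459-fold, 4091-fold, 34278-fold and 2312-fold. Zic1 had 1 count over the WT liver group.

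**Figure D1:**
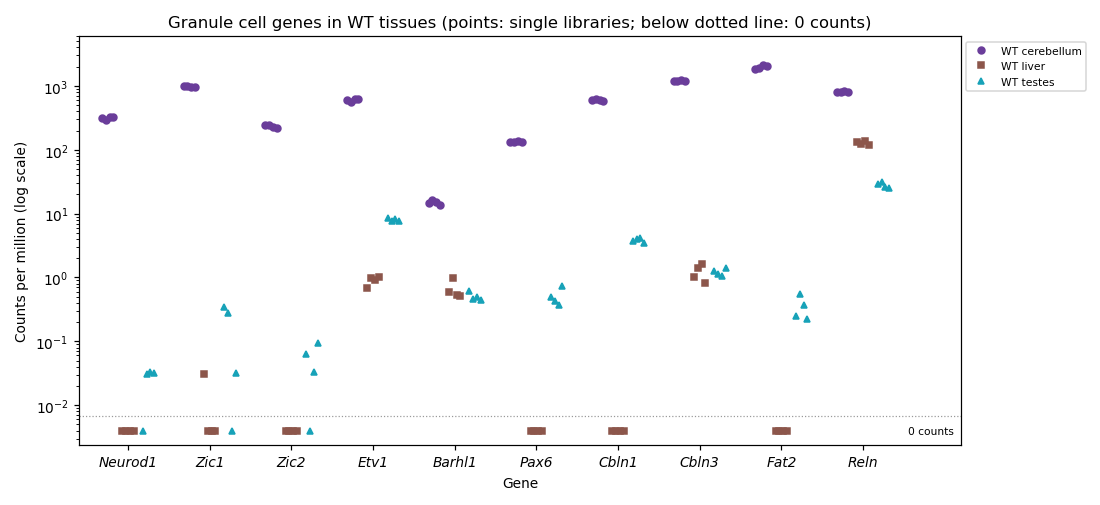
CPM on a log scale of the 10 granule cell genes in each WT library of cerebellum, liver and testes (4 points per gene and tissue); points under the dotted line had 0 counts. Every gene was highest in cerebellum, Reln was the only one of the 10 above 100 CPM in liver, and Barhl1 was the lowest of the 10 in cerebellum.

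Reln was the exception in liver. It was measured at 131, 122, 139 and 121 CPM in the WT liver libraries and at 28.6, 31.0, 26.2 and 25.1 CPM in WT testes, against 796 to 832 CPM in WT cerebellum. The pooled ratio of cerebellum to liver in CPM was 6.29 (95% counting interval 6.19 to 6.39), the smallest of the 10 genes. Barhl1 was the next smallest at 23.1 (18.6 to 29.1), since its level in cerebellum was low, between 13.6 and 16.6 CPM. Cbln3 and Etv1 were low in liver, at 0.815 to 1.62 CPM and 0.682 to 1.00 CPM, and their ratios were 973 (830 to 1149) and 679 (563 to 828). With TMM scaling these 4 ratios were lower, at 2.68 for Reln, 9.84 for Barhl1, 415 for Cbln3 and 289.6 for Etv1. These intervals cover counting error only.

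In WT testes Etv1 and Cbln1 were measurable, at 7.53 to 8.41 CPM and 3.49 to 4.11 CPM, and Cbln3 at 1.04 to 1.38 CPM. The other members apart from Reln stayed under 1 CPM in every WT testes library. Over the 4 WT testes libraries Neurod1 had 3 counts and Zic2 had 6, which gave ratios of cerebellum to testes in CPM of 13133 (4494 to 63684) and 4947 (2273 to 13481). Etv1, Cbln1 and Reln were thus the members that testes also expressed above 3 CPM.

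KO and WT cerebellum were compared with limma-voom after quantile normalization, the method of the study, over 16225 genes. Of these, 1045 (6.44%) had a Benjamini-Hochberg adjusted p under 0.05, 638 (3.93%) higher and 407 (2.51%) lower in KO. Among the 10 granule cell genes, 3 were called lower and none higher by limma, and at an unadjusted p under 0.05 the same 3 were lower and 1, Barhl1, was higher, where 11.9% of all genes tested were lower and 12.3% higher. edgeR and DESeq2 also called 3 lower and 0 higher. The median log2 difference of the 10 genes was 0.01 after quantile normalization, beside -0.01 over all genes tested, and it was -0.04 with edgeR, DESeq2 or TMM scaling. In whole tissue, fewer granule cells and less RNA per cell cannot be told apart.

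**Figure D2:**
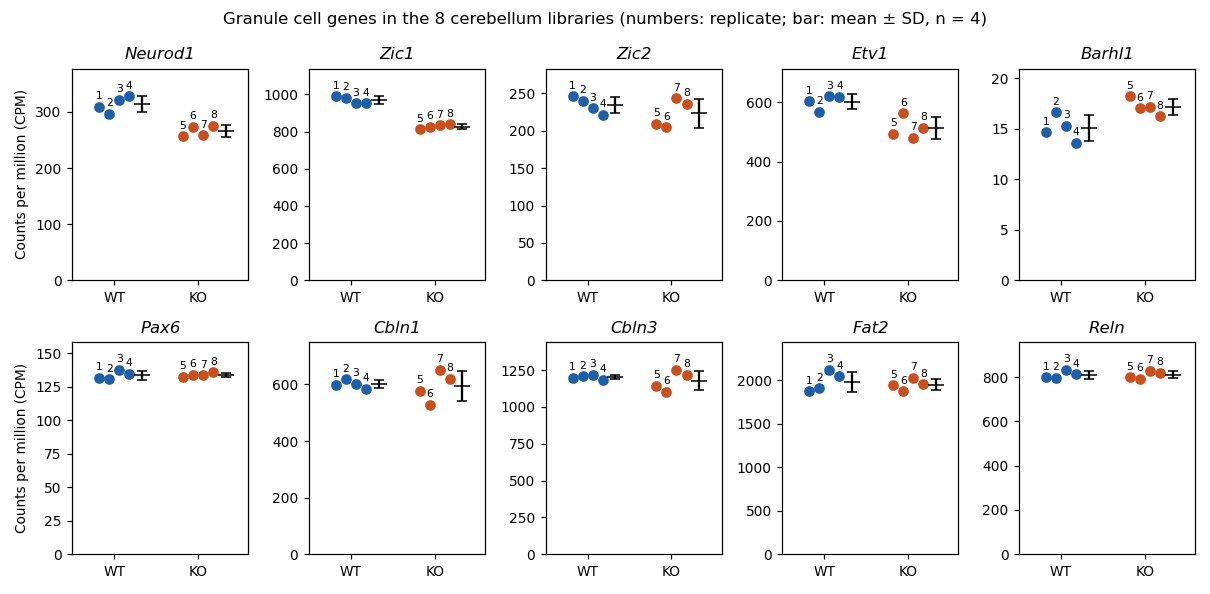
CPM of the 10 granule cell genes in each cerebellum library, WT (replicates 1 to 4, blue) and KO (replicates 5 to 8, orange), on axes from 0; black bars give the mean ± SD of 4 libraries. All KO points of Neurod1, Zic1 and Etv1 lie below all WT points, and those of Pax6 and Reln lie at the WT level.

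Zic1 was lower in KO. It was measured at 991, 983, 953 and 952 CPM in WT and at 812, 825, 833 and 839 CPM in KO. Every KO library lay under every WT library, and the libraries of each genotype were close together. On the log2 scale KO minus WT was -0.21 (SE 0.028, 95% confidence interval -0.27 to -0.15, limma adjusted p = 0.00138), or 13.5% lower (9.69% to 17.1%).

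Neurod1 was lower in KO as well, at 309, 297, 322 and 328 CPM in WT and 256, 274, 258 and 276 CPM in KO. Again the genotypes did not overlap. KO minus WT was -0.22 on the log2 scale (SE 0.039, interval -0.30 to -0.13, limma adjusted p = 0.00658), or 14.0% lower (8.92% to 18.9%).

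Etv1 was the third gene called, at 603, 568, 620 and 617 CPM in WT and 494, 563, 481 and 514 CPM in KO. The highest KO library, replicate 6, lay just under the lowest WT library, replicate 2, and the others were well apart. Its log2 difference was -0.20 (SE 0.046, interval -0.30 to -0.10, limma adjusted p = 0.0233), or 13.0% lower (6.81% to 18.7%). The Etv1 call was lost without WT replicate 1 (limma adjusted p = 0.0694), 3 (0.0766) or 4 (0.067) or without KO replicate 5 (0.0787), 7 (0.0568) or 8 (0.0596), with the log2 difference between -0.20 and -0.17, while Zic1 and Neurod1 stayed called without any single library.

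Groups that do not overlap were common in these libraries: 13.8% of all genes tested in cerebellum had non-overlapping CPM in WT and KO. When neighbouring libraries were summed, leaving 2 samples per genotype, 48 of the 16225 genes were called and none of the 10 was. The log2 differences were then -0.20 for Zic1, -0.22 for Neurod1 and -0.21 for Etv1, with limma adjusted p of 0.089, 0.0919 and 0.099. With all 24 libraries in 1 fit, Zic1 also missed the threshold (log2 difference -0.25, limma adjusted p = 0.096), and Neurod1 and Etv1 were called.

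The other 3 transcription factor genes were not called. Barhl1 was measured at 14.6, 16.6, 15.3 and 13.6 CPM in WT and 18.2, 16.999, 17.2 and 16.2 CPM in KO. Its KO libraries were on the high side and overlapped WT only through WT replicate 2 and KO replicate 8. KO minus WT was 0.16 on the log2 scale (SE 0.072, interval 0.01 to 0.32, limma adjusted p = 0.188), and each library held only 266 to 411 Barhl1 counts.

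Zic2 was measured at 246, 240.5, 230.2 and 221 CPM in WT and 209, 205, 243 and 236 CPM in KO. Replicates 5 and 6 were below all WT libraries, and replicates 7 and 8 were within the WT range. The fitted log2 difference was -0.06 (interval -0.18 to 0.06, limma adjusted p = 0.571).

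Pax6 was measured at 131, 130, 137 and 134 CPM in WT and 132, 134, 133 and 136 CPM in KO. Its KO libraries lay inside the WT range. The fitted log2 difference was 0.01 (interval -0.06 to 0.08, limma adjusted p = 0.917), so a change the size of that of Zic1 lay outside the interval, and the sign turned negative (-0.01) with TMM scaling.

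The genes of the parallel fibre synapse and cell surface were not called either. Cbln1 was measured at 598, 618, 603 and 586 CPM in WT and 577, 528, 651 and 621 CPM in KO. KO replicates 5 and 6 lay under the WT range and replicates 7 and 8 above it, so the SD was 53.5 CPM in KO and 13.6 CPM in WT. The fitted log2 difference was 0.01 (interval -0.10 to 0.13, limma adjusted p = 0.904), and it was -0.03 with TMM scaling.

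Cbln3, whose protein is secreted together with Cbln1, was measured at 1196, 1208, 1218 and 1186 CPM in WT and 1144, 1104, 1250 and 1217 CPM in KO. It split the KO libraries as Cbln1 did, with replicates 5 and 6 under the WT range. The log2 difference was 0.02 (interval -0.07 to 0.11, limma adjusted p = 0.822), and -0.04 with TMM scaling.

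Fat2 was measured at 1871, 1906, 2116 and 2043 CPM in WT and 1941, 1871, 2029 and 1952 CPM in KO, with overlap. Its log2 difference was 0.04 (interval -0.05 to 0.14, limma adjusted p = 0.595), and -0.04 with TMM scaling. Reln was measured at 800, 796, 832 and 813 CPM in WT and 800, 794, 829 and 821 CPM in KO. Its genotypes lay on top of each other, with a log2 difference of 0.01 (interval -0.05 to 0.07, limma adjusted p = 0.876), and -0.01 with TMM scaling. For Cbln1, Cbln3, Fat2, Pax6 and Reln no direction is given, since it changed with the scaling.

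**Figure D3:**
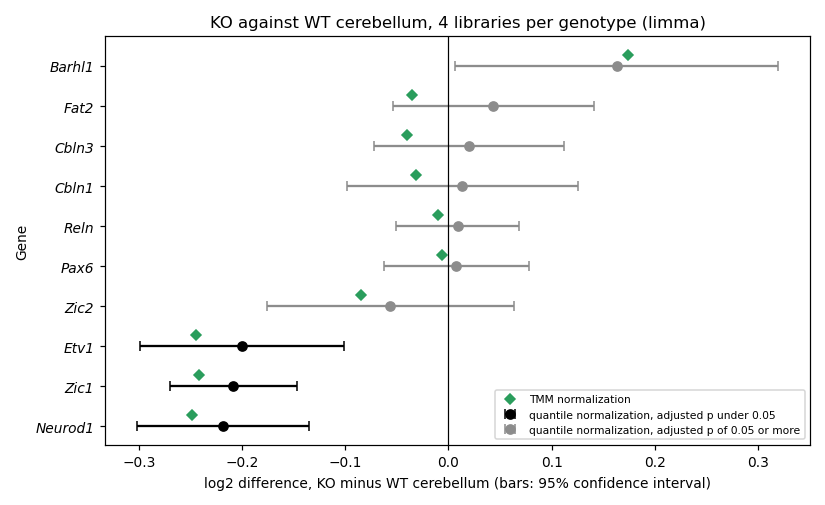
The log2 difference of KO minus WT cerebellum for each of the 10 genes (4 libraries per genotype), with 95% confidence intervals under quantile normalization (circles, black where the adjusted p was under 0.05) and the estimate under TMM scaling (green diamonds). Zic1, Neurod1 and Etv1 lie near -0.2 under both scalings, and Fat2, Cbln3, Cbln1, Reln and Pax6 cross from the positive to the negative side.

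Added up, the 10 genes came to 6761, 6765, 7046 and 6894 CPM in WT and 6383, 6314, 6724 and 6628 CPM in KO. In CPM all KO sums were under all WT sums, the nearest being KO replicate 7 and WT replicate 1. After quantile normalization the genotypes overlapped, with sums of 6605.8 to 6903 in WT and 6289 to 6769 in KO. As a share of the CPM sum, Zic1 made up 14.1% ± 0.548 in WT and 12.7% ± 0.278 in KO (SD, n = 4 each), Neurod1 4.57% ± 0.152 and 4.09% ± 0.212, and Etv1 8.77% ± 0.254 and 7.89% ± 0.741. Reln made up 11.8% ± 0.0233 and 12.5% ± 0.123.

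Marker lists of other tissues and cells moved between these libraries. Of 15 forebrain neuron markers, 9 were tested and 6 were called higher in KO, and their summed level was 116 to 120 CPM in WT and 170 to 231 CPM in KO. The largest were Nrgn, a calmodulin-binding protein of forebrain neurons, at 1.58 to 2.61 CPM in WT and 13.3 to 34.3 CPM in KO, and Rasgrf2 at 3.55 to 4.29 and 8.33 to 16.96 CPM. Camk2a, Cck, Bcl11b and Slc17a6 were also higher. With neighbouring libraries summed, 2 of the 9, Nrgn and Camk2a, were called, and none with the covariate of the next paragraph. Bcl11b, Camk2a and Slc17a6 are used outside the forebrain too.

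With the log2 summed forebrain level as a covariate, which does not overlap between genotypes, 37 genes and none of the 10 were called. The log2 differences were then -0.14 for Zic1, -0.18 for Neurod1 and -0.31 for Etv1, with limma adjusted p of 0.54, 0.579 and 0.41. The part of that tissue in the 3 lower genes and the genotype cannot be told apart here.

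Choroid plexus markers, such as Ttr, split the libraries by neighbours and not by genotype. The 8 markers summed to 1077 and 1101 CPM in WT replicates 1 and 2, to 19.3 and 18.8 in WT replicates 3 and 4, to 23.6 and 24.8 in KO replicates 5 and 6, and to 369 and 368 in KO replicates 7 and 8. None of the 8 was called by limma, or had an unadjusted p under 0.05. With their log2 sum as a covariate, a fit also chosen after seeing the data, Zic1, Neurod1 and Etv1 were still called lower (limma adjusted p of 0.000394, 0.00212 and 0.00806).

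**Figure D4:**
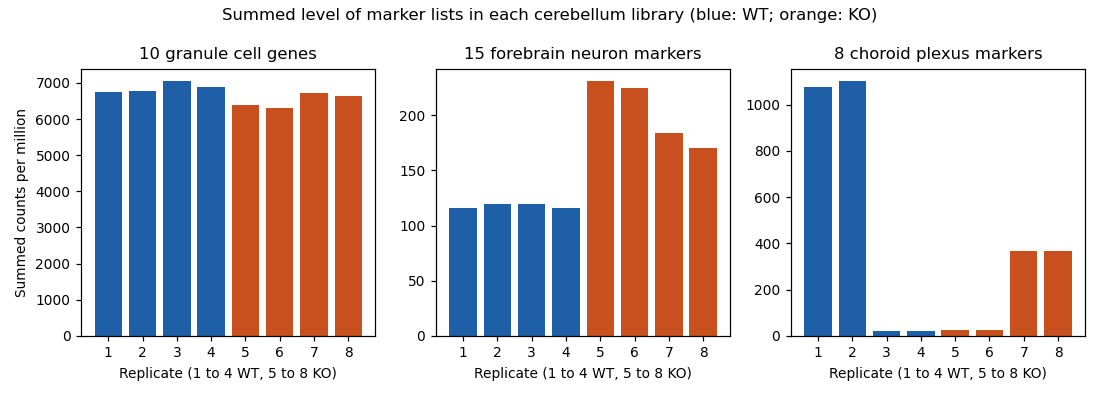
Summed CPM in each cerebellum library (blue, WT replicates 1 to 4; orange, KO replicates 5 to 8) of the 10 granule cell genes, 15 forebrain neuron markers and 8 choroid plexus markers, with bars from 0. In these CPM sums the 10 genes were slightly lower and the forebrain markers higher in all KO libraries than in any WT library, and choroid plexus markers were high in replicates 1, 2, 7 and 8 of the 8 libraries.

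The other genes of mature granule cells did not move as a block. Of 14 markers tested, 3 were called higher in KO, 1 was called lower and 10 were not called, with a median log2 difference of 0.06. At a limma unadjusted p under 0.05, 6 of the 14 were higher and 1 was lower. Over all genes tested, 12.3% were higher and 11.9% lower at that threshold. Calb2, the calcium buffer calretinin, was higher (225.7 ± 5.76 CPM in WT, 313 ± 19.4 in KO, log2 difference 0.48, limma adjusted p = 8.59e-05). Vamp1, a synaptic vesicle protein, and Grm4, the presynaptic glutamate receptor of parallel fibres, were higher by 0.24 and 0.30 on the log2 scale (limma adjusted p of 0.00241 and 0.00723). With neighbouring libraries summed, Vamp1 and Grm4 were not called, which left 1 of the 14 higher and 1 lower.

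Gabra6 was the marker that was lower in KO. It stood at 454, 437, 442 and 466 CPM in WT and 358, 387, 354 and 406 CPM in KO, without overlap (log2 difference -0.26, limma adjusted p = 0.00557). Calb2 was called in all 19 fits of the cerebellum libraries and Gabra6 in 18 of them, all but that with the forebrain covariate. Slc17a7, the vesicular glutamate transporter of granule cells, had a log2 difference of 0.04 (limma adjusted p = 0.676). Gabrd, the partner of Gabra6 in extrasynaptic GABA-A receptors, had a log2 difference of 0.01 (limma adjusted p = 0.915).

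Genes of dividing and migrating granule cells were mostly low in these adult libraries, and 10 of 15 passed the filter. Ccnd1, a cyclin of the progenitors, was called higher (23.3 ± 0.652 CPM in WT, 33.3 ± 1.96 in KO, limma adjusted p = 0.000381), and Meis1, a homeobox factor that Pax6-positive granule cells keep, was called lower (129 ± 2.17 and 116 ± 1.24 CPM, limma adjusted p = 0.0175). The remaining 8 were not called, and over the 19 fits Ccnd1 was called in 17 and Meis1 in 13. With neighbouring libraries summed Ccnd1 was called and Meis1 was not.

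Relatives of the 10 genes were read alongside them. In a list of 14 family members, 12 were tested, 2 were called higher and none lower: the atypical cadherins Fat1 (852 ± 31.7 CPM in WT, 1036 ± 15.5 in KO, limma adjusted p = 0.000327) and Fat4 (23.99 ± 1.37 and 29.4 ± 1.79 CPM, limma adjusted p = 0.0187). Fat1 was called in 17 of the 19 fits and Fat4 in 12, with Fat4 lost without WT replicate 1, 3 or 4 or KO replicate 5 and with neighbouring libraries summed. With edgeR, sample quality weights or the choroid plexus covariate, 1 of the 12 was called lower, beside 2 higher. Without KO replicate 6, 2 were called lower and 3 higher. Zic4, which lies beside Zic1 on the opposite strand, had a log2 difference of -0.08 (limma adjusted p = 0.358). Zic5, whose start lies 9757 bp from that of Zic2, had a log2 difference of -0.14 (limma adjusted p = 0.0574).

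Among 7 genes of the cerebellin family and its receptors, 6 were tested. The 5 other than Cbln2 were not called in the main limma fit (unadjusted p under 0.05 in 2, Nrxn2 and Grid1). With Cbln2 among them, 2 were called higher with edgeR or the choroid plexus covariate, and 3 with sample quality weights. Without KO replicate 6, where Cbln2 was not tested, 1 of 5 was called higher and 1 lower. Cbln2 was listed at 0, 0.202, 0.163 and 0.255 CPM in WT and 3.51, 3.49, 1.64 and 2.63 CPM in KO, a low level next to that of Cbln1 and Cbln3. It passed the filter through its KO libraries alone, so its call is not read as a result. Of 9 genes of the reelin pathway, which includes the reelin receptors and their adaptor, all were tested and none was called by limma, as for Reln itself (unadjusted p under 0.05 in 2, Crkl and Vldlr, and in 24.2% of all genes tested); with TMM scaling 1 of the 9 was called lower.

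Other cerebellar cell types were checked with the same fit. Of 13 Purkinje cell genes, Pcp2 and Slc1a6 were called higher (log2 differences of 0.24 and 0.18) and none lower. In unipolar brush cells, 1 of 5 genes tested, Eomes, was lower (log2 difference -0.48), with 21.4 and 21.04 CPM in KO replicates 5 and 6 and 14.5 CPM in replicates 7 and 8. Among 11 interneuron genes Tfap2b was lower (-0.21), among 10 astrocyte and Bergmann glia genes Gfap was higher (0.23), and among 10 oligodendrocyte genes Mag and Cnp were higher (0.27 and 0.19). None of 8 microglial genes tested was called by limma (3, Csf1r, C1qb and Tmem119, were higher at an unadjusted p under 0.05), and of 5 midbrain genes tested, Th was higher. Tal1, another of the 5, stood at 0.459 to 1.01 CPM in WT and 1.37 to 2.04 CPM in KO and passed the filter through KO, so its call is not read as a result. All 10 oligodendrocyte genes had a positive log2 difference, with a median of 0.20 beside -0.01 over all genes tested, and 6 of them had an unadjusted p under 0.05 (12.3% of all genes tested were higher at that threshold). Their summed level was 2607 to 3134 CPM in WT and 3042 to 3243 CPM in KO, with overlap. The sums of 3 others of these cell type lists did not overlap between genotypes and were higher in all KO libraries than in any WT library. They were 3849 to 3903 CPM in WT and 3942 to 3963 CPM in KO for astrocyte and Bergmann glia genes, 82.2 to 95.6 and 96.1 to 102 CPM for microglial genes, and 62.5 to 67.4 and 69.9 to 80.8 CPM for midbrain genes. At an unadjusted p under 0.05, 4 of the 10 astrocyte and Bergmann glia genes were higher and none lower, and 5 of the 13 Purkinje cell genes were higher and 1 lower. Several of these calls were weak: over the 19 fits, Eomes was called in 5, Pcp2 and Slc1a6 in 7, Cnp in 8, Mag and Th in 10, Gfap in 12 and Tfap2b in 15. With neighbouring libraries summed, no gene of the lists in this paragraph was called. The part of these other cell types in the values of the 10 genes was not tested beyond the 2 covariates above.

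Outside the cerebellum, 4 of the 10 genes passed the filter in testes and 2 were called, both higher in KO, where 9.74% of 19329 genes tested were called higher. Etv1 was measured at 8.41, 7.75, 8.24 and 7.53 CPM in WT testes and 12.4, 11.8, 10.7 and 11.8 CPM in KO testes. The genotypes did not overlap, and the log2 difference was 0.44 (SE 0.089, interval 0.25 to 0.64, limma adjusted p = 0.00814). Reln was measured at 28.6, 31.0, 26.2 and 25.1 CPM in WT and 34.2, 36.5, 44.5 and 47.4 CPM in KO, again without overlap and with neighbouring KO libraries alike. The share of all genes tested in testes without overlap was not computed, so these gaps are a description only. The log2 difference of Reln was 0.46 (SE 0.10, interval 0.23 to 0.68, limma adjusted p = 0.0125). With neighbouring testes libraries summed, the adjusted p rose to 0.162 for Etv1 and 0.179 for Reln, and 1 gene of the 19329 was called.

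**Figure D5:**
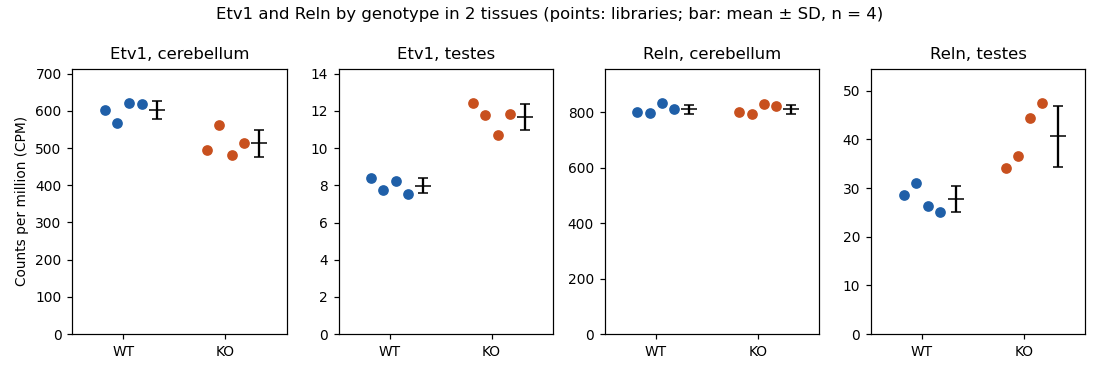
CPM of Etv1 and Reln in each WT (blue) and KO (orange) library of cerebellum and testes, on axes from 0 that differ between panels; black bars give the mean ± SD of 4 libraries. Etv1 was lower in KO cerebellum and higher in KO testes, and Reln was level in cerebellum and higher in KO testes.

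Cbln1 and Cbln3 were not called in testes, with log2 differences of -0.02 (limma adjusted p = 0.886) and 0.13 (limma adjusted p = 0.709). The sign for Cbln1 turned with TMM scaling, to 0.03. The KO effect in cerebellum minus that in testes was tested directly as an interaction. It was -0.68 for Etv1 (SE 0.10, limma adjusted p = 0.000558) and -0.44 for Reln (SE 0.097, limma adjusted p = 0.00452), so that 2 of the 4 genes tested differed, where 10.9% of 13753 genes were called in that direction and 19.6% in either. With neighbouring libraries summed, the adjusted p was 0.0465 for Etv1 and 0.108 for Reln.

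In liver, 2 of the 10 genes passed the filter and neither was called by limma, edgeR or DESeq2 (5.91% of 12816 genes were by limma), nor had an unadjusted p under 0.05. Reln was measured at 117, 126, 177 and 176 CPM in KO liver against 121 to 139 CPM in WT. Replicates 7 and 8 lay above all WT libraries, and replicate 5 lay below them. In the fit the log2 difference was 0.22 (interval -0.04 to 0.47, limma adjusted p = 0.286), and it was 0.34 with sample quality weights (limma adjusted p = 0.0486). Cbln3 had a log2 difference of -0.15 (interval -0.69 to 0.38, limma adjusted p = 0.755). Neither differed in its KO effect between cerebellum and liver (limma adjusted p of 0.242 and 0.974), where 8.45% of 11489 genes were called.

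For each of the 10 genes the gene with the most similar profile over the 24 libraries was found as the smallest root mean square difference of mean-centred log2(CPM + 0.5) values among 13296 candidates. Since tissues differ most, this measures mainly how far cerebellum stands from liver and testes. The closest was Pvalb, parvalbumin, for Neurod1, at 0.0933 log2 units. The others were Car10 for Zic2 (0.101), Cnr1 for Cbln1 (0.157), Epb41 for Reln (0.164), Sept11 for Barhl1 (0.196), Gpr37l1 for Cbln3 (0.202), Lrrtm3 for Pax6 (0.211), Ntrk2 for Etv1 (0.215), Mir124a-1hg for Zic1 (0.226) and Snap25 for Fat2 (0.234). Of these, Mir124a-1hg, the host transcript of a neuronal microRNA, was called in KO cerebellum (log2 difference -0.17, limma adjusted p = 0.00513). In that fit 6.44% of all genes tested were called. Its direction was that of Zic1, but the KO cerebellum libraries entered the choice of nearest genes, so this was partly built in.

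In the mm10 annotation (GENCODE M21) the 10 genes are protein-coding genes on 7 chromosomes. Neurod1 (ENSMUSG00000034701.9) spans chr2:79452521-79456751 on the minus strand, Zic1 (ENSMUSG00000032368.14) chr9:91358058-91365810 on the minus strand and Etv1 (ENSMUSG00000004151.17) chr12:38779380-38870484 on the plus strand. Zic2 lies at chr14:122475435-122479852, Cbln3 at chr14:55878913-55884392, Barhl1 at chr2:28907679-28916668, Pax6 at chr2:105668900-105697364, Cbln1 at chr8:87468405-87472609, Fat2 at chr11:55250609-55336564 and Reln at chr5:21884454-22344702.

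Exons of 3 of the 10 overlap a gene on the other strand. The overlap with Gm26755 covers 154 bp or 5.64% of the Neurod1 exons, that with Zic4 60 bp or 1.05% of the Zic1 exons, and that with Gm10475 246 bp or 1.04% of the Reln exons. The library kit keeps the strand, and the strand setting of the counting was not given in the sources used here. Gm26755 stood at 1.797 to 2.69 CPM and had a log2 difference of -0.15 (limma adjusted p = 0.622). Neurod1 also shares exon sequence with Cerkl on its own strand, so its counts are partly an estimate of RSEM. Cerkl stood at 18.1 to 21.8 CPM with a log2 difference of -0.07 (limma adjusted p = 0.634). Expected counts of Etv1 were also not whole in the cerebellum libraries, so they too are partly an estimate.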

How the data were processed

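Total RNA of cerebellum, liver and testes was sequenced after removal of ribosomal RNA with a stranded paired-end kit. Per the labels and the study's methods, the authors aligned reads to mm10 with STAR and deposited expected counts per gene from RSEM with the GENCODE M21 annotation. The versions and the strand setting are not given in the sources used here. The table held 55450 genes in 24 libraries, and all IDs matched the M21 annotation. Between 12.3% and 16.6% of nonzero expected counts were not whole, since RSEM shares out ambiguous reads; they were rounded for edgeR and DESeq2 only.

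CPM were computed from the library totals. KO and WT were compared per tissue with limma-voom (limma 3.58.1 in R 4.3.3) after quantile normalization, for genes with at least 1 CPM in at least 4 libraries, at a Benjamini-Hochberg adjusted p under 0.05 over all genes tested. Tissues and differences of KO effects were compared with limma-voom on TMM factors (edgeR 4.0.16). edgeR's quasi-likelihood test, DESeq2 1.42.0, other filters, sample quality weights, a replicate block and fits without each library were tried as alternatives. On simulated counts with 200 genes changed by 1 on the log2 scale, the cerebellum comparison recovered 96.5% of them, and 4.46% of its calls were false (16212 genes). The simulated libraries were independent with a spread set in advance, and the change was larger than those of Zic1, Neurod1 and Etv1. These rates therefore do not apply to the calls of Zic1, Neurod1 and Etv1.

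Named genes were the 10 members, Thumpd1, up to 5 called genes of each of 14 supporting lists and the nearest gene of each member. Levels of other markers (Atoh1, Ttr, Slc17a6, Slc17a7, Gabrd, Nrxn2, Grid1, Zic4, Zic5, Crkl, Vldlr, Csf1r, C1qb, Tmem119, Gm26755 and Cerkl) were added after their values were seen. The members and lists were chosen with earlier results of these data known. Whether same-numbered libraries of different tissues came from the same mouse is not known. Their deviations correlated at -0.19 to 0.17 for cerebellum and liver and at -0.10 to 0.16 for cerebellum and testes. Weak correlations between different tissues cannot settle this. Counting intervals of ratios are exact Poisson intervals (95%) of the counts in the background tissue.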

Additional observations from a re-analysis of the deposited data

Results flagged for a closer look

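Of 42 groups of 4 libraries checked for a single library far from the rest, 1 was flagged, where chance gives about 1 in 20. This was Barhl1 in WT liver, where replicate 2 stood at 0.971 CPM and the other libraries at 0.519, 0.529 and 0.589 CPM. The gap was 0.844 of the range, above the Dixon limit for 4 libraries, and Barhl1 had only 14 to 30 counts per WT liver library.

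The KO effect differed between cerebellum and testes for Etv1 and Reln by the interaction test (limma). For Etv1 the difference was -0.68 on the log2 scale, with lower values in all 4 KO cerebellum libraries and higher values in all 4 KO testes libraries than in any WT library of the tissue. For Reln it was -0.44, with overlapping genotypes in cerebellum and higher values in all 4 KO testes libraries.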

How the results depend on the processing

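Of 1049 recomputed values, 921 kept their direction and their side of the threshold or stayed near the reported value, 16 lost a call, 1 gained one, 53 moved and 58 turned direction, all 58 for differences that were not called. With other tests, scalings, filters and weights, Zic1, Neurod1 and Etv1 were called lower in cerebellum, apart from Zic1 with all 24 libraries in 1 fit and Etv1 without 6 of the single libraries. Summing neighbouring libraries and the forebrain and choroid plexus covariates were chosen after seeing the data; the choroid plexus covariate kept 3 of the 10 called lower in cerebellum, while each of the others left 0 of the 10 genes called lower in cerebellum (3 as reported), and summing left 0 called higher in testes (2 as reported) and 1 in the difference of cerebellum minus testes (2 as reported). The ratios of tissues under TMM-scaled library sizes and the quantile-normalized sums were also added after seeing the data. Sample quality weights called 1 of the 10 genes, Reln, in liver. Calls over all genes in cerebellum (1045) fell to 417 when WT replicate 1 was left out and rose to 2317 when KO replicate 6 was, and were 628 without a filter, 1757 with quality weights, 338 with all libraries in 1 fit, 48 with neighbours summed, and 37 and 1713 with the forebrain and choroid plexus covariates. They were 757 in liver (284 to 795 without single libraries, 1408 with DESeq2, 492 without a filter, 1705 with weights, 2218 in the joint fit, 10 with neighbours summed) and 3957 in testes (1711 to 4913, 6107 with weights, 1 with neighbours summed). For the differences of KO effects they were 971 against liver (566 to 1414, 1573 with DESeq2, 4 with neighbours summed) and 2700 against testes (1902 to 3107, 139 with neighbours summed).

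In cerebellum, edgeR, DESeq2, TMM scaling and the joint fit gave log2 differences of -0.0279, -0.0282, -0.0314 and -0.0442 for Cbln1, -0.0394, -0.0397, -0.0405 and -0.0533 for Cbln3, -0.0381, -0.0384, -0.0354 and -0.0485 for Fat2, -0.00781, -0.00731, -0.00635 and -0.0190 for Pax6 and -0.0109, -0.0110, -0.00995 and -0.0227 for Reln. With neighbours summed Reln came to -0.00361, and with the forebrain covariate Zic2 to 0.325 and Barhl1 to -0.0316. Without single libraries Cbln1 ranged from -0.0220 to 0.0709, Cbln3 from -0.0193 to 0.0524, Pax6 from -0.00254 to 0.0197 and Reln from -0.000277 to 0.0201. In testes Cbln1 came to 0.0275, 0.0243 and 0.0289 with edgeR, DESeq2 and TMM scaling (-0.0680 to 0.0188 without single libraries), and Cbln3 to -0.0916 with quality weights (-0.0800 to 0.341). The cause was not tested.

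The replicate block, run for the tissue comparisons and the differences of KO effects, changed no call of the 10 genes. Over all genes it moved the calls from 971 to 1130 for the difference against liver and from 2700 to 2627 for that against testes. Under it the differences of KO effects against testes were -0.68 for Etv1 and -0.44 for Reln. For the uncalled Cbln3 against liver and Cbln1 against testes it gave 0.0236 and 0.00160. Cbln3 against liver was 0.0250 with edgeR, 0.0370 with DESeq2, 0.275 with quantile normalization and 0.0311 with neighbours summed (-0.175 to 0.0988 without single libraries). Cbln1 against testes was 0.0297 with DESeq2 and 0.147 with quantile normalization (-0.0614 to 0.0518), and Cbln3 against testes was 0.0344 with quantile normalization (-0.358 to 0.0184). Depth limits Barhl1 in all tissues, and most members in liver and testes, where counts were near 0.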
